A study of Mus musculus with 6 samples.

Results

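The N-myc downstream-regulated gene (Ndrg) family of the mouse has 4 members, Ndrg1, Ndrg2, Ndrg3 and Ndrg4, and this account follows them through expression arrays of olfactory epithelium. The family was set as every probe set whose platform annotation names 1 gene, where that gene is Ndrg1, Ndrg2, Ndrg3 or Ndrg4, which gave 10 of 34945 such probe sets: 5 for Ndrg1, 1 for Ndrg2, 2 for Ndrg3 and 2 for Ndrg4. It was chosen because Ndrg4 was already known to lie among the genes with the lowest values in mutant against wild-type arrays. All mutant against wild-type values of the family are therefore given as a description, without a test.

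RNA of olfactory epithelium, the lining of the nasal cavity that holds the odour-sensing neurons, came from 3 mutant and 3 wild-type mouse pups aged 1 day, each hybridised to its own array. Both groups were on a mixed C57Black6/J and 129SvJ background, and the RNA was amplified and biotin-labelled before hybridisation. The study looked for target genes of KLF7, a zinc finger transcription factor of the Krüppel-like family that acts in neurons; which allele the mutant pups carried is not stated in the labels. All values are log2 normalized intensities, and a difference is mutant minus wild type on that scale.

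NDRG proteins share an alpha/beta hydrolase fold but lack the catalytic residues of the hydrolases. Ndrg1 is named for its repression by N-myc, is induced by low oxygen and other stress, and is abundant in myelinating Schwann cells, where its loss causes a demyelinating neuropathy in humans. Ndrg2 is known as a gene of astrocytes, Ndrg3 as a protein that lactate stabilises in low oxygen, and Ndrg4 as a gene of neurons and heart that supports neurite outgrowth.

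Because the study concerns targets of a Krüppel-like factor, RefSeq promoters (build GRCm38.p6) of the family are shown first. Of the 4 genes, 3 matched the table, with 9 annotated start sites: 3 for Ndrg2, 2 for Ndrg3 and 4 for Ndrg4. The 250 bases before each start were searched on both strands for the letters CACNCCC, the core that Krüppel-like factors bind; such a match is a description and not a binding site. The Ndrg4 window below held 3 matches, the highest number among the 9, and the Ndrg3 window held 0. Capitals mark the matches, and each sequence runs 5′ to 3′ in the direction of its gene.
Ndrg4, chr8:95677513-95677762, plus strand: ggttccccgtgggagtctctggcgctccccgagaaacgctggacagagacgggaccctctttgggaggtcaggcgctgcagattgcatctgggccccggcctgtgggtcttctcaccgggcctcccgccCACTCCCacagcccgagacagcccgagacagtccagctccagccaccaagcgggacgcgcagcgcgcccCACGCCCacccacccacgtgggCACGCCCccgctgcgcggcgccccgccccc
Ndrg3, chr2:156992112-156992361, minus strand: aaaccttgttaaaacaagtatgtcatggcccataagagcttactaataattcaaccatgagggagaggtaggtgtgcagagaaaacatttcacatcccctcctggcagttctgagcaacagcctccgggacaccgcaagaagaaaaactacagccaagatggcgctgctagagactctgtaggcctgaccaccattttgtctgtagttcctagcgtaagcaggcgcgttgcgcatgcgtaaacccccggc

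The 3 matches before this Ndrg4 start began 121, 52 and 30 bases upstream of it. The next Ndrg4 start held 1 match, the remaining 2 Ndrg4 windows 0, and the 3 Ndrg2 windows 1, 1 and 0. Neither Ndrg3 window held one. Among all 32841 windows of this length, 26.1% held at least 1 match and 1.56% held 3 or more. The Ndrg4 window with 3 matches was picked from 9 for its count, so shares of single windows do not show how unusual it is. Of the 3 Ndrg4 matches, 1 overlapped a GC box, GGGCGG, which the same window held 2 times and which 32.7% of all windows held. The window also held 1 E-box, CACGTG, the letters bound by Myc proteins and found in 6.02% of windows; the hypoxia response core ACGTG, found in 16.6%, occurred only within that E-box, on both strands.

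The arrays differed in brightness and in profile. Total deposited intensity ran from 11056397 to 14439788 on mutant arrays and from 10064207 to 13320971 on wild-type arrays, and array medians from 38.79 to 61.59 on mutant arrays and from 38.21 to 52.81 on wild-type arrays. On the first principal component, which carried 50.2% of the variance, mutant array 3 (49.5) and wild-type array 3 (98.2) stood apart from the other 4 arrays, which lay between -42.4 and -32.3. Klf7 itself, read as a check of the group labels, had no overlap on any of its 4 probe sets, with differences of -3.06 to -2.15. No gene of 12703 tested passed limma's adjusted p threshold of 0.05, 0% of those tested. Klf7 did not pass either. Before adjustment, limma put 76 genes (0.598%) below 0.05. With no effect at all, evenly spread p-values would put a share equal to that cut-off below it, so the fit was conservative. For the gene lists below, a count of 0 passing is therefore not evidence of no change. A limma fit that paired arrays of equal number also called 0, and its unadjusted p fell below 0.05 for 157 genes.

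Ndrg4 was lower on every mutant array than on every wild-type array, by about the same amount on both of its probe sets. Probe set 1426615_s_at read 8.49, 7.95 and 8.36 on mutant arrays 1, 2 and 3, against 9.62, 9.13 and 10.16 on wild-type arrays 1, 2 and 3. Its means were 8.27 ± 0.28 in mutant and 9.64 ± 0.52 in wild type (SD, n = 3 each), a difference of -1.37 (SE 0.314) or 2.58-fold lower. The highest mutant array lay 0.63 below the lowest wild-type array, a gap wider than the SD of either group. The _s ending of this name marks a probe set that can also bind other transcripts, which was not tested.

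Probe set 1436188_a_at read 7.33, 6.53 and 6.55 on mutant arrays, against 8.67, 7.86 and 8.27 on wild-type arrays. Its means were 6.80 ± 0.45 in mutant and 8.26 ± 0.41 in wild type (SD, n = 3 each), a difference of -1.46 (SE 0.365) or 2.75-fold lower. Here too the groups did not overlap, with a gap of 0.53. On both probe sets mutant array 1 was the highest of the mutant arrays, mutant array 2 the lowest, and wild-type array 2 the lowest of the wild-type arrays.

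**Figure D1:**
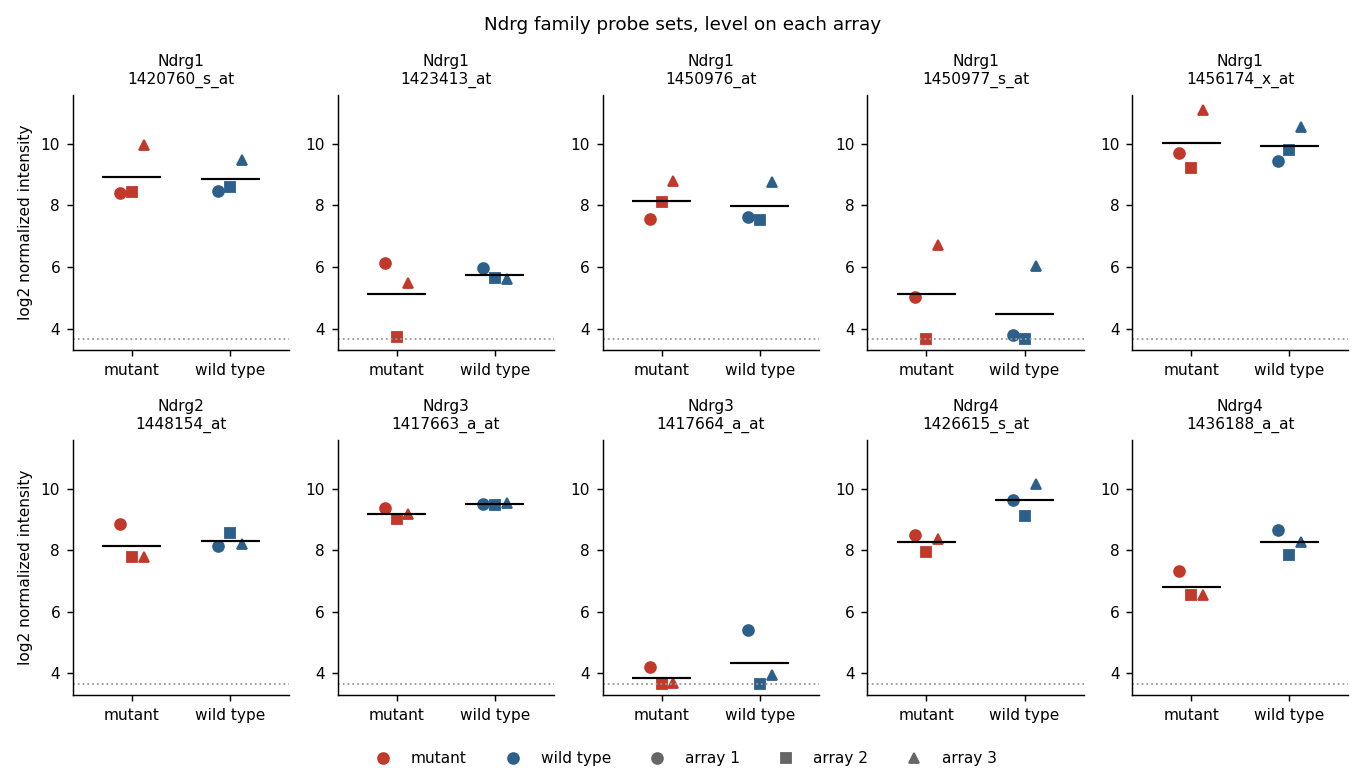
Level of each Ndrg probe set on each array (y axis, log2 normalized intensity; x axis, mutant and wild type; circles, squares and triangles are arrays 1, 2 and 3; black lines are group means over 3 arrays; the dotted line is the floor of 3.65). Both Ndrg4 panels show mutant points below all wild-type points, with gaps of 0.63 and 0.53, while the Ndrg1 panels show array 3 on top in both groups for 4 of 5 probe sets.

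The Ndrg4 difference was read within each pair of arrays that carry the same number, where its sign was fixed by the lack of overlap. For 1426615_s_at it was -1.12, -1.18 and -1.80 in pairs 1, 2 and 3, and for 1436188_a_at it was -1.34, -1.33 and -1.72. Without both arrays numbered 3, the differences were -1.17 (SE 0.319) and -1.39 (SE 0.507). The groups stayed apart when arrays were scaled to equal medians (gaps of 0.33 and 0.32) and with no scaling between arrays (0.74 and 0.75). In the deposited intensities 1426615_s_at read 366.16, 308.48 and 283.67 in mutant, against 837.79, 609.81 and 880.84 in wild type.

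Across the family, 3 of the 10 probe sets had groups that did not overlap, all 3 lower in the mutant: both of Ndrg4 and 1 of Ndrg3. Among all single-gene probe sets, 1.62% were lower in the mutant without overlap; since the family was chosen on this contrast, nothing is read from that comparison. By gene, with the brightest probe set of each, 32 of 12703 genes (0.252%) had a difference as low as that of Ndrg4 or lower. The corresponding shares were 17.4% for Ndrg3, 29.7% for Ndrg2 and 64.4% for Ndrg1, so the other members lay within the bulk of all genes. The 10 probe sets had a median difference of -0.23, with 6 lower and 4 higher, against a median of -0.02 over all genes tested, of which 52.6% were lower.

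**Figure D2:**
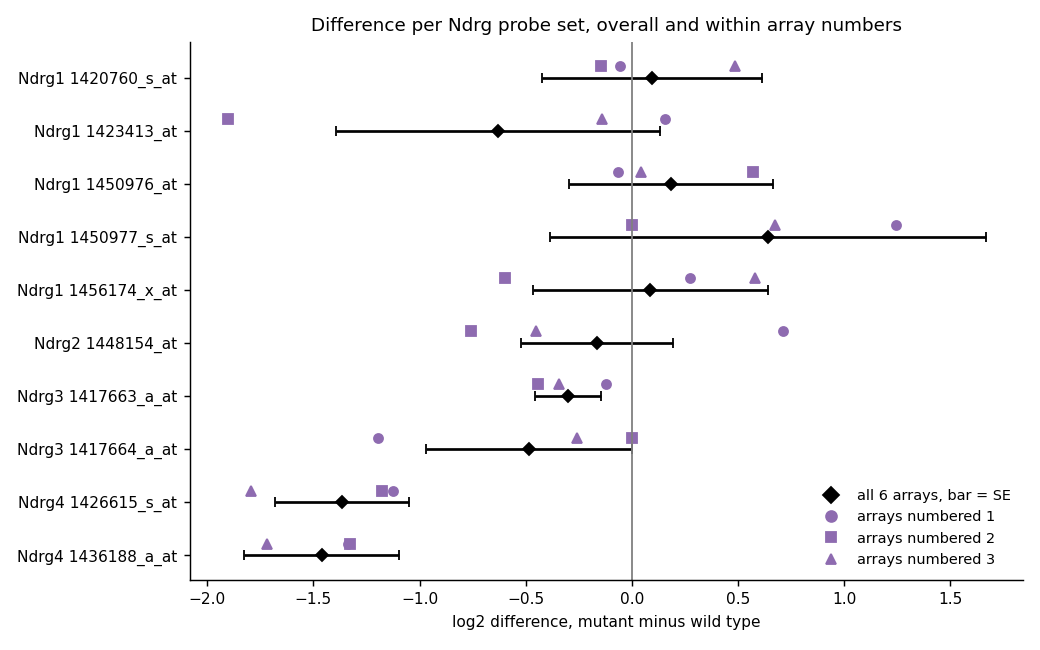
Log2 difference, mutant minus wild type (x axis), for each Ndrg probe set (rows). Black diamonds use all 6 arrays with the SE as bar, and purple symbols are the differences within arrays numbered 1, 2 and 3; the 2 Ndrg4 rows lie at -1.37 and -1.46 with every symbol below -1, whereas the Ndrg1 and Ndrg2 rows have symbols on both sides of 0 or at 0.

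Ndrg3 had a small difference on its brighter probe set and, after quantile normalization, varied little within groups there. Its brighter probe set, 1417663_a_at, read 9.37, 9.02 and 9.18 on mutant arrays, against 9.49, 9.47 and 9.53 on wild-type arrays. The means were 9.19 ± 0.17 in mutant and 9.50 ± 0.03 in wild type (SD, n = 3 each), a difference of -0.30 (SE 0.156) or 1.23-fold lower. Within numbered pairs it was -0.12, -0.44 and -0.34, where groups without overlap fix the sign. The groups were apart by 0.10 after quantile normalization, but they overlapped with arrays scaled to equal medians and with no scaling, so the separation depended on the scaling. After quantile normalization its SD within groups, pooled over both, was 0.13, at percentile 1.79 of all genes tested, where the median gene had 0.56. The low spread also depended on the scaling. The SE of the difference was 0.370 with arrays scaled to equal medians and 0.227 with no scaling.

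The other Ndrg3 probe set, 1417664_a_at, was dim. It read 4.21, 3.65 and 3.69 on mutant arrays, against 5.40, 3.65 and 3.95 on wild-type arrays, where 3.65 is the floor that the lowest 20% of all values were raised to. Within numbered pairs the differences were -1.20, 0 and -0.26. The groups overlapped, and the overall difference of -0.49 (SE 0.486) became 0.0491 without wild-type array 1. It and the Ndrg1 probe set 1450977_s_at were the 2 of 10 below the level of 5.19 used to leave out dim probe sets, so 8 of 10 passed that filter.

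Ndrg2 had overlapping groups and a difference within its error. Its 1 probe set, 1448154_at, read 8.85, 7.79 and 7.77 on mutant arrays, against 8.13, 8.55 and 8.22 on wild-type arrays. The mutant arrays held both the highest value and the 2 lowest. The means were 8.14 ± 0.62 in mutant and 8.30 ± 0.22 in wild type (SD, n = 3 each), a difference of -0.16 (SE 0.356). Within numbered pairs the differences were 0.71, -0.76 and -0.45, and the overall difference was 0.0076 without mutant array 2 and 0.0205 without mutant array 3.

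Ndrg1 was highest on the arrays numbered 3 of both groups, and its levels overlapped between genotypes. Its brightest probe set, 1456174_x_at, read 9.71, 9.22 and 11.12 on mutant arrays, against 9.44, 9.82 and 10.54 on wild-type arrays. Array 3 was the highest of its group in both, and the groups overlapped. The means were 10.02 ± 0.98 in mutant and 9.93 ± 0.56 in wild type (SD, n = 3 each), a difference of 0.09 (SE 0.554).

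Probe set 1420760_s_at gave the same picture, with 8.41, 8.45 and 9.96 on mutant arrays, against 8.47, 8.59 and 9.48 on wild-type arrays. Probe set 1450976_at read 7.56, 8.10 and 8.81 in mutant, against 7.63, 7.53 and 8.77 in wild type. Their differences were 0.09 (SE 0.517) and 0.18 (SE 0.479), both smaller than their errors. The _s and _x endings of Affymetrix names mark probe sets that can also bind other transcripts, and what else these may bind was not tested.

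The 2 dimmer Ndrg1 probe sets went opposite ways with large errors. Probe set 1423413_at read 6.12, 3.73 and 5.47 in mutant, against 5.96, 5.64 and 5.61 in wild type, a difference of -0.63 (SE 0.763) that became 0.0585 without mutant array 2. Probe set 1450977_s_at read 5.02, 3.65 and 6.71 in mutant, against 3.77, 3.65 and 6.03 in wild type, a difference of 0.64 (SE 1.026) that became -0.16 without mutant array 3. In both the groups overlapped, and the second lay at the floor on mutant array 2 and wild-type array 2.

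On 4 of the 5 Ndrg1 probe sets both arrays numbered 3 were above all 4 others, which was also the case for 18.9% of all genes tested. That share counts each gene by its brightest probe set, above the dim level. The 5 probe sets all belong to Ndrg1, and 1450977_s_at was below that level, so the 2 counts are not in like units. The mean of the arrays numbered 3 was above that of the others by 1.28 for 1456174_x_at, 1.24 for 1420760_s_at, 1.08 for 1450976_at and 2.35 for 1450977_s_at. For 1423413_at it was above by 0.18. These are the arrays that stood apart on the first principal component. Without mutant array 3, the difference of 1456174_x_at was -0.46; without both arrays numbered 3 it was -0.16, and that of 1420760_s_at was -0.11. Without wild-type array 1 it was also -0.16 for 1456174_x_at, so the sign of the Ndrg1 difference turned with single arrays.

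Genes of the response to low oxygen, to which Ndrg1 belongs, overlapped between the groups. Of 14 such genes tested, 0 passed the threshold (limma, 0 at an unadjusted p under 0.05), 10 were higher and 4 lower, with a median difference of 0.16 against -0.02 over all genes. Adm, a vasodilator peptide, differed by 0.57 (SE 0.456), Pgk1, a glycolytic enzyme, by 0.19 (SE 0.181) and Egln3, an oxygen-sensing hydroxylase, by 0.24 (SE 0.295). The mean level over the 14 genes was 9.51, 9.09 and 9.79 on mutant arrays, against 9.21, 9.49 and 9.32 on wild-type arrays. Mutant array 3 was the highest for this list and for 4 of the 5 Ndrg1 probe sets, whereas wild-type array 3, second highest on those probe sets, was below wild-type array 2 and mutant array 1 on the list.

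Markers of olfactory ensheathing cells and Schwann cells, the glia of the olfactory nerve, overlapped between the groups. Over the 9 of 13 listed genes above the dim level, a choice made after the values were seen, their mean level was 8.68, 8.16 and 8.63 on mutant arrays, against 8.43, 8.42 and 8.39 on wild-type arrays, and 2 of the 9 had both arrays numbered 3 above all others. Over the 11 genes with a probe set, dim ones included, the mean was 7.77, 7.35 and 7.95 on mutant arrays, against 7.56, 7.55 and 7.92 on wild-type arrays, so the order of the arrays depended on 2 dim genes. Of the 9 tested, 0 passed the threshold (limma, 0 at an unadjusted p under 0.05), with 6 higher, 3 lower and a median of 0.14. Cdh19, an adhesion protein of Schwann cell precursors, differed by -0.60 (SE 0.678), the neuropeptide Npy by 0.49 (SE 0.620) and the myelin protein Pmp22 by 0.20 (SE 0.280). The part of glial or hypoxic content in the Ndrg1 levels was not tested.

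**Figure D3:**
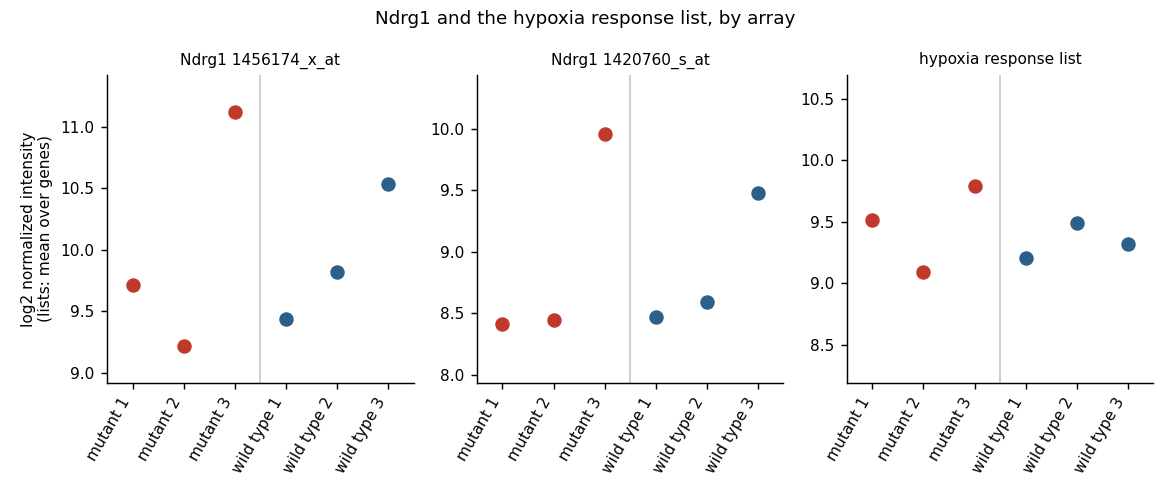
Level on each array (x axis; mutant in red, wild type in blue) of the 2 brightest Ndrg1 probe sets, and the mean over the 14 genes of the hypoxia response list (y axis, log2 normalized intensity, the same span of 2.5 units in every panel). Array 3 is the highest of its group for both Ndrg1 probe sets; the list is highest on mutant array 3, at 9.79, and on wild-type array 2, at 9.49.

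Regulators of the family and kinases that act on it were tested next. Of 14 tested, 0 passed the threshold (limma), with 10 higher, 4 lower and a median of 0.08. Egr1, an immediate early transcription factor, differed by 0.48 (SE 0.210) with overlapping groups. It was the 1 gene of 14 at an unadjusted p under 0.05 (limma), against 0.598% of all genes tested. Gsk3b and Sgk1, kinases that phosphorylate NDRG1, differed by 0.28 (SE 0.202) and 0.27 (SE 0.193). Mycn and Hif1a, the transcription factors that give the family its name and its response to low oxygen, differed by 0.05 (SE 0.524) and 0.12 (SE 0.205) and were read beside those named by rule.

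Of 10 proteins reported as partners or downstream of NDRG proteins, 0 passed the threshold (limma), with 5 higher, 5 lower and a median of -0.02. Stx1a, a membrane fusion protein of synapses, read 7.87, 6.55 and 9.05 on mutant arrays, against 9.003, 9.28 and 9.16 on wild-type arrays. The difference was -1.32 (SE 0.554), with overlap at mutant array 3. Stx1a was the 1 gene of this list at an unadjusted p under 0.05 (limma), against 0.598% of all genes tested. Bdnf, a neurotrophin, differed by -1.22 (SE 0.772), lower without overlap but narrowly so. Its highest mutant array read 5.67 and its lowest wild-type array 5.71. Bves, a muscle and epicardial membrane protein that binds NDRG4, differed by 1.43 (SE 0.759), higher without overlap. Its lowest mutant array read 5.97 and its highest wild-type array 5.86. The lower group mean was 5.15 for Bdnf in mutant and 5.34 for Bves in wild type, near the dim level of 5.19. Whether either gene overlaps under other scalings was not tested. Among all genes tested 2.86% did not overlap in either direction.

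Markers of olfactory sensory neurons were lower on the same arrays as Ndrg4. In whole tissue, fewer cells of a type and less RNA per cell cannot be told apart. The mean level over the 12 of 15 mature neuron genes with a probe set was 8.18, 7.99 and 8.30 on mutant arrays, against 9.07, 8.57 and 8.54 on wild-type arrays, with no overlap. Of the 11 tested, 0 passed the threshold (limma, 6 at an unadjusted p under 0.05), 9 were lower and 2 higher, and the median difference was -0.86. Over all genes tested, 0.598% had an unadjusted p under 0.05 (limma), 52.6% were lower and the median was -0.02. The list was chosen with earlier results of these data known. Stoml3, a protein of olfactory cilia, differed by -0.86 (SE 0.238), the olfactory G protein subunit Gnal by -0.92 (SE 0.257) and the glutamate transporter Slc17a6 by -1.05 (SE 0.319).

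Of the 11 mature neuron genes tested, 5 were lower without overlap, and the others had overlapping groups. Among all genes tested 2.86% did not overlap in either direction. Omp, the olfactory marker protein that defines these cells, read 7.56, 7.41 and 8.06 on mutant arrays, against 8.81, 7.92 and 7.40 on wild-type arrays. Its groups overlapped, with a difference of -0.36 (SE 0.480). The 2 members higher in the mutant were the channel subunit Cngb1, at 0.73 (SE 0.689), and the adenylyl cyclase Adcy3, at 0.36 (SE 0.450).

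Immature neuron genes were less far apart. Their mean level was 10.32, 10.19 and 10.37 on mutant arrays, against 10.72, 10.59 and 10.49 on wild-type arrays, again with no overlap. Of 14 tested, 0 passed the threshold (limma, 2 at an unadjusted p under 0.05), with 9 lower, 5 higher and a median of -0.21. The shares over all genes were 0.598% at an unadjusted p under 0.05 (limma) and 52.6% lower. The microtubule regulators Stmn3 and Stmn2 differed by -0.80 (SE 0.187) and -0.94 (SE 0.226) without overlap. Gap43, a growth cone protein, differed by -0.73 (SE 0.342) with overlap. Of the 14 genes, 5 were lower without overlap, and the others had overlapping groups. Among all genes tested 2.86% did not overlap in either direction. Of the 5 that were higher, Lhx2 at 0.62 (SE 0.395) and Nhlh2 at 0.19 (SE 0.204) had the largest differences, with overlapping groups. The difference of Ndrg4, -1.37, was lower than that of every immature neuron gene tested, the lowest being Crmp1 at -1.28, and than that of every mature neuron gene but Cnga2, an olfactory channel subunit at -1.41. Because the family was chosen for the low value of Ndrg4, nothing is read from this order. The differences between these values were not tested, and the part of neuron content in the Ndrg4 difference was not tested.

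**Figure D4:**
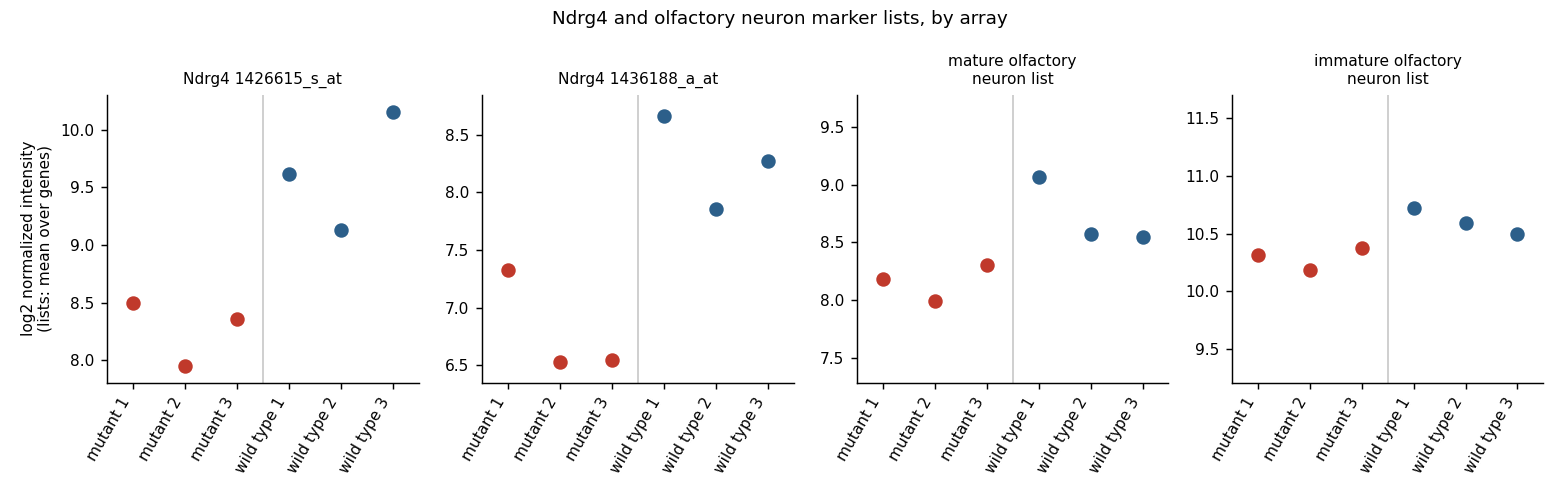
Level on each array (x axis; mutant in red, wild type in blue) of both Ndrg4 probe sets and the mean over the genes of the mature and immature olfactory neuron lists (y axis, log2 normalized intensity, the same span of 2.5 units in every panel). In all 4 panels the mutant arrays lie below the wild-type arrays, by 0.63 and 0.53 at the nearest for Ndrg4.

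Marker lists of other tissues overlapped between the groups. Muscle genes, listed because Ndrg4 is also a gene of heart muscle, had 1 of 10 members above the dim level, Ckm, with a difference of 0.31 (SE 0.536); their mean level was 4.38, 4.56 and 4.40 on mutant arrays, against 4.02, 4.96 and 5.79 on wild-type arrays. Astrocyte and central nervous system genes had a median difference of 0.09 over 7 tested, and a mean level of 6.47, 6.79 and 6.56 on mutant arrays, against 6.50, 6.25 and 6.56 on wild-type arrays. Squamous epithelium, which a dissection can carry along, ranged from 4.42 to 6.57 on mutant arrays and from 4.84 to 8.04 on wild-type arrays, highest on wild-type array 2. Supporting cell and gland genes had a median of 0.30, with 8 of 9 higher. The mean level over those 9 was 9.65, 9.93 and 9.36 on mutant arrays, against 9.88, 9.415 and 8.79 on wild-type arrays. It was lowest on wild-type array 3, which also stood farthest out on the first principal component. Genes of multiciliated respiratory cells had a median of 0.30, with 9 of 9 higher; Cdhr3, a protocadherin-like protein of ciliated cells, differed by 0.90 (SE 0.428) without overlap, and Rsph1 and Ccdc39, parts of motile cilia, by 0.74 (SE 0.509) and 0.30 (SE 0.360) with overlap. Over these 9 the mean level was 8.78, 8.48 and 9.005 on mutant arrays, against 8.28, 8.73 and 8.11 on wild-type arrays. In each of these 5 lists limma passed 0 members, with 0 at an unadjusted p under 0.05. Among all genes tested 52.6% were lower, and 2.86% did not overlap in either direction.

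Genes whose profile over the 6 arrays was nearest to each member were found by the root mean square difference of log2 values after each gene's own mean was removed, a measure that includes the contrast itself. The nearest to Ndrg4 were Mustn1 (0.23), Nptx2 (0.23), Frmd3 (0.24) and Syt1 (0.25). These had differences of -1.33 (SE 0.687), -1.27 (SE 0.684), -1.08 (SE 0.545) and -1.07 (SE 0.464). Mustn1 and Nptx2 were dim in the mutant. Mustn1 read 4.49 and 4.87 on mutant arrays 2 and 3, and Nptx2 4.50 on mutant array 2, below the dim level of 5.19. The nearest to Ndrg3 were Ift43 (0.04), Ppp2r3c (0.06), Ssr1 (0.06) and Ptcd1 (0.07), and to Ndrg2 Nebl (0.10), Sumf2 (0.11), Trmt61a (0.11) and Ecd (0.11). The nearest to Ndrg1 were Sgcb (0.09), Pfkl (0.09), Arl2 (0.14) and Ccna1 (0.14).

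By the same measure, Ndrg2 and Ndrg3 were the nearest pair of members at 0.31, and Ndrg1 and Ndrg4 the farthest at 0.92. Ndrg4 lay 0.61 from Ndrg3 and 0.77 from Ndrg2.

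**Figure D5:**
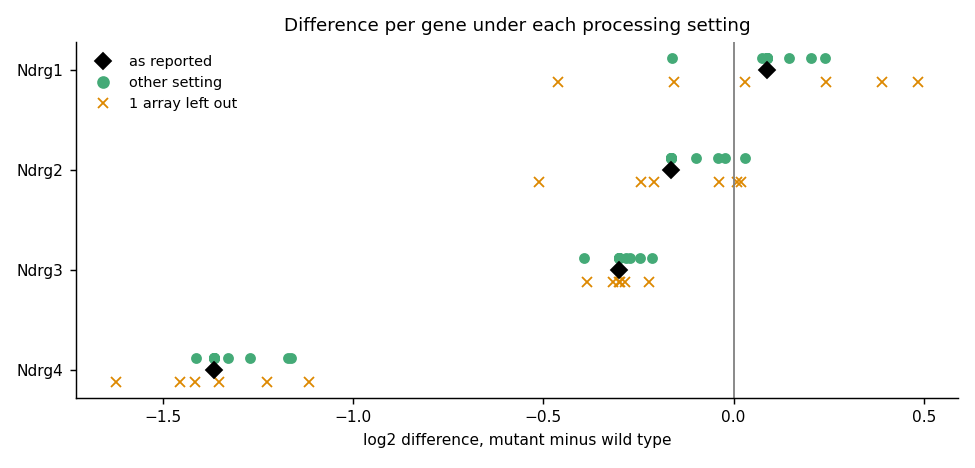
Log2 difference, mutant minus wild type (x axis), of each Ndrg gene (rows) as reported (black diamonds), under other processing settings (green circles) and with 1 array left out (orange crosses). Ndrg4 stays between -1.62 and -1.12 and Ndrg3 between -0.39 and -0.21, while Ndrg1 and Ndrg2 fall on both sides of 0.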

How the data were processed

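The authors deposited a linear intensity for each probe set on each array; their probe summary, background correction and scaling are not given in the sources used here. Of 45037 probe sets on an array, there were 34945 with 1 gene symbol in GEO's platform annotation, 932 with several and 9160 with none. Exact zeros made up 5.39% of values. The precision is limited by 3 arrays a group.

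Arrays were quantile normalized, values below the 20th percentile (an intensity of 12.56, or 3.65 on the log2 scale) were set to it as a floor, and log2 was taken; folds near the floor are understated. Each of 18193 genes was represented by its brightest single-gene probe set, and 5490 genes in the lowest 40% (below 5.19) were left out. limma 3.58.1 in R 4.3.3 (lmFit, eBayes with trend, two-sided, Benjamini-Hochberg, threshold 0.05) was fitted over 12703 genes. Member differences and SEs came from the fit of all single-gene probe sets, with no test. SEs of all other genes came from the fit over 12703 genes. In that fit the SEs were 0.458 for Ndrg1, 0.427 for Ndrg2, 0.280 for Ndrg3 and 0.364 for Ndrg4. The SEs printed for members and for other genes are therefore not on the same footing. The fit over genes was also run on simulated data, with noise drawn independently for each gene and array. Those data lacked the arrays that stood apart on the first principal component, so the run does not check the fit under that condition.

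The same replicate numbers occur in both groups. Deviations of same-numbered arrays from their group means correlated at 0.47, 0.18 and 0.56 across genes, each over 0.1, which was taken as pairing. Mutant array 1 correlated with wild-type array 2 at 0.22, above the 0.18 of the arrays numbered 2. Since both arrays numbered 3 stood apart, such correlations can arise without pairing, so they do not establish it. The reported fit leaves the pairing out, and the fit with the replicate block is an alternative. The members and gene lists were chosen with earlier results of these data known. Genes named are the members, Klf7 and the 4 genes nearest in profile to each member. Up to 3 members of each of the lists described, those with the smallest p, are also named. Crmp1, Cnga2, Omp, Cngb1, Adcy3, Lhx2, Nhlh2, Mycn and Hif1a were named after their values were seen. The planned protein comparison of the family could not be made, as no protein table was used here. Sequences are RefSeq's, build GRCm38.p6; the array files name no build. Lists of basal cells, cartilage and blood had median differences of 0.04, 0.11 and 0.26, with 0 members passed by limma and 0 at an unadjusted p under 0.05.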

Additional observations from a re-analysis of the deposited data

How the results depend on the processing

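The Ndrg4 and Ndrg3 differences kept their direction under all 17 alternatives, Ndrg4 between -1.62 and -1.12 and Ndrg3 between -0.39 and -0.21. As their groups did not overlap in the reported fit, leaving out an array could hardly turn the sign. With 1 array left out, Ndrg1 ranged from -0.46 to 0.49 and Ndrg2 from -0.51 to 0.0205, and so did their probe sets 1456174_x_at and 1448154_at. Under the same omissions 1420760_s_at ranged from -0.42 to 0.41, 1423413_at from -1.13 to 0.0585, 1450976_at from -0.14 to 0.59, 1450977_s_at from -0.16 to 1.41 and 1417664_a_at from -0.84 to 0.0491. Without both arrays numbered 3, Ndrg1 and 1456174_x_at came to -0.16 and 1420760_s_at to -0.11. With array weights Ndrg2 came to 0.0296. The cause of these turns was not tested.

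The number of genes passing limma's threshold was 0 under all 17 alternatives. The 76 genes at an unadjusted p under 0.05 became 43 with arrays scaled to equal medians, 50 with no scaling, 191 with no dim filter, 131 with array weights, 120 without both arrays numbered 3, and 67 to 212 with 1 array left out (of which 212 belongs to the fit lacking wild-type array 2 and 132 to that lacking wild-type array 3). With the replicate block there were 157, and the block changed no other call. The Ndrg4 difference is -1.37 with and without the block. In fits of 1 probe set per gene without the dim filter, its SE was 0.235 under the block against 0.315. Signal over background limits 1417664_a_at and 1450977_s_at, which reached the floor on arrays of both groups.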
